A study of Mus with 9 samples.

Results

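Integrins and laminins are the receptors and the ligands through which kidney cells hold on to their basement membrane. Every protein-coding gene of the table whose symbol names an integrin α subunit, an integrin β subunit or a laminin chain was taken, which gave 37 genes of the 54532 listed. These were 18 α subunits, 8 β subunits and 11 laminin chains. Of the 37 genes, 36 passed the filter on low counts, among 15902 genes tested in all. The exception was Itgad, with 0 to 0.370 CPM, counts scaled to library size and normalized between libraries, in the 9 libraries.

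An integrin is a pair of 1 α and 1 β subunit that spans the plasma membrane, binds matrix or another cell outside and is coupled to the actin cytoskeleton inside. A laminin is a cross-shaped trimer of 1 α, 1 β and 1 γ chain, and a sheet of laminin is the first layer of a basement membrane. In the kidney the tubule, the glomerular capillary and the podocyte each rest on such a membrane, and loss of several of these genes in mouse or human causes leakage of protein into urine or failure of kidney development.

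The RNA came from whole kidney tissue of male C57BL/6 mice, with 3 mice and 3 libraries per group. All 3 groups had lost 1 kidney by surgery at 18 months of age, so no group had both kidneys. The 18 mo group was killed 1 week after that surgery. The 21 mo group received intraperitoneal saline every day until 21 months of age, and the 21 mo/O304 group received O304, a pan-activator of the energy-sensing kinase AMPK, at 10 mg/kg per day over the same time. Age, time since surgery and injections therefore differ together between the 18 mo group and either 21-month-old group, and their shares in a difference cannot be told apart. In whole tissue, fewer cells of a type and less RNA per cell cannot be told apart either.

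Counts on genes summed to between 15636378 and 18396725 per library. Within a group, log2 CPM correlated across genes at 0.976 to 0.983 in 18 mo and at 0.972 to 0.978 in 21 mo/O304, but at only 0.881 to 0.956 in 21 mo. The tissue label was borne out by Lrp2, the endocytic receptor of the proximal tubule, at 318 to 3219 CPM, and by Umod, made in the thick ascending limb, at 1405 to 4767 CPM. Replicate 3 of 21 mo stood apart. Its summed CPM over 10 proximal tubule markers was 2244, against 34603 and 10445 in the other 21 mo libraries, 35108 to 43291 in 18 mo and 40222 to 45944 in 21 mo/O304. This library was the highest of all 9 in 21 of the 36 tested integrin and laminin genes (58.3%), compared with 28.9% of all genes tested. The 36 genes also varied more between mice in 21 mo than in the other groups, with a median coefficient of variation of 48.7%, compared with 21.3% in 18 mo and 23.5% in 21 mo/O304. Over all genes tested these medians were 25.9%, 12.5% and 13.8%.

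Levels of different genes are compared here in FPKM, the authors' count scaled by gene length and library size. In 18-month-old mice, Itgb1, the β subunit shared by most matrix receptors (ENSMUSG00000025809, chromosome 8, 128685654 to 128733200 in the coordinates of the table), had the highest level of the 37 genes at 62.5 ± 1.99 FPKM (SD, n = 3). Itgb5, a partner of αv, followed at 38.7 ± 2.72 FPKM, and the libraries of these genes did not overlap. Itgb8, another αv partner, at 16.6 ± 2.18 FPKM, and Lamb1, the most abundant laminin chain, at 15.03 ± 2.21 FPKM, overlapped each other. Lamb1 also overlapped the next gene, Itgav, which encodes the αv subunit, at 11.6 ± 1.29 FPKM. Itgb6, an αv partner of epithelia, was at 10.96 ± 2.18 FPKM and Itga6, which pairs with β1 or β4 to bind laminin, at 10.8 ± 0.840 FPKM, and these were not separated from Itgav. Lama5, the α chain of the mature glomerular and tubular membranes, was at 7.88 ± 1.02 FPKM, Lamb2, the β chain of the mature glomerular membrane, at 7.20 ± 0.812 FPKM and Itga3, the main laminin receptor subunit of podocytes, at 6.54 ± 0.627 FPKM, each overlapping the next. Lamc1, the γ chain common to most laminins, at 4.98 ± 0.845 FPKM, overlapped Itga1, a collagen receptor subunit, at 4.73 ± 0.164 FPKM.

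Below this, 12 genes lay between 1.31 and 3.11 FPKM without a gap between neighbours. They included the leukocyte subunit Itgb2 at the top, the chains Lama1, Lama3 and Lamc3, the subunits Itgb7, Itga9, Itga5, Itga2b, Itga8 and Itgax, and Itga7 at the bottom. The other 13 genes were under 1 FPKM in 18 mo. Lama2, the α chain of muscle laminin, was at 0.838 ± 0.193 FPKM, and Itgal and Itgae, subunits of lymphocyte integrins, at 0.769 ± 0.210 FPKM and 0.541 ± 0.155 FPKM. Itgam of myeloid cells was at 0.510 ± 0.134 FPKM, Itgb3, a partner of αv, at 0.440 ± 0.106 FPKM and Lama4, the α chain of vessel laminin, at 0.378 ± 0.135 FPKM. Itgb4, the partner of α6 in hemidesmosomes, was at 0.477 ± 0.183 FPKM, Lamb3, the β chain of the hemidesmosome laminin, at 0.336 ± 0.134 FPKM, and Itga4, a receptor subunit for VCAM1 and fibronectin, at 0.213 ± 0.139 FPKM. The collagen receptor subunits Itga10 and Itga11 were at 0.137 ± 0.0609 FPKM and 0.135 ± 0.0559 FPKM, and Itga2, also a collagen receptor subunit, at 0.0485 ± 0.0139 FPKM.

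**Figure D1:**
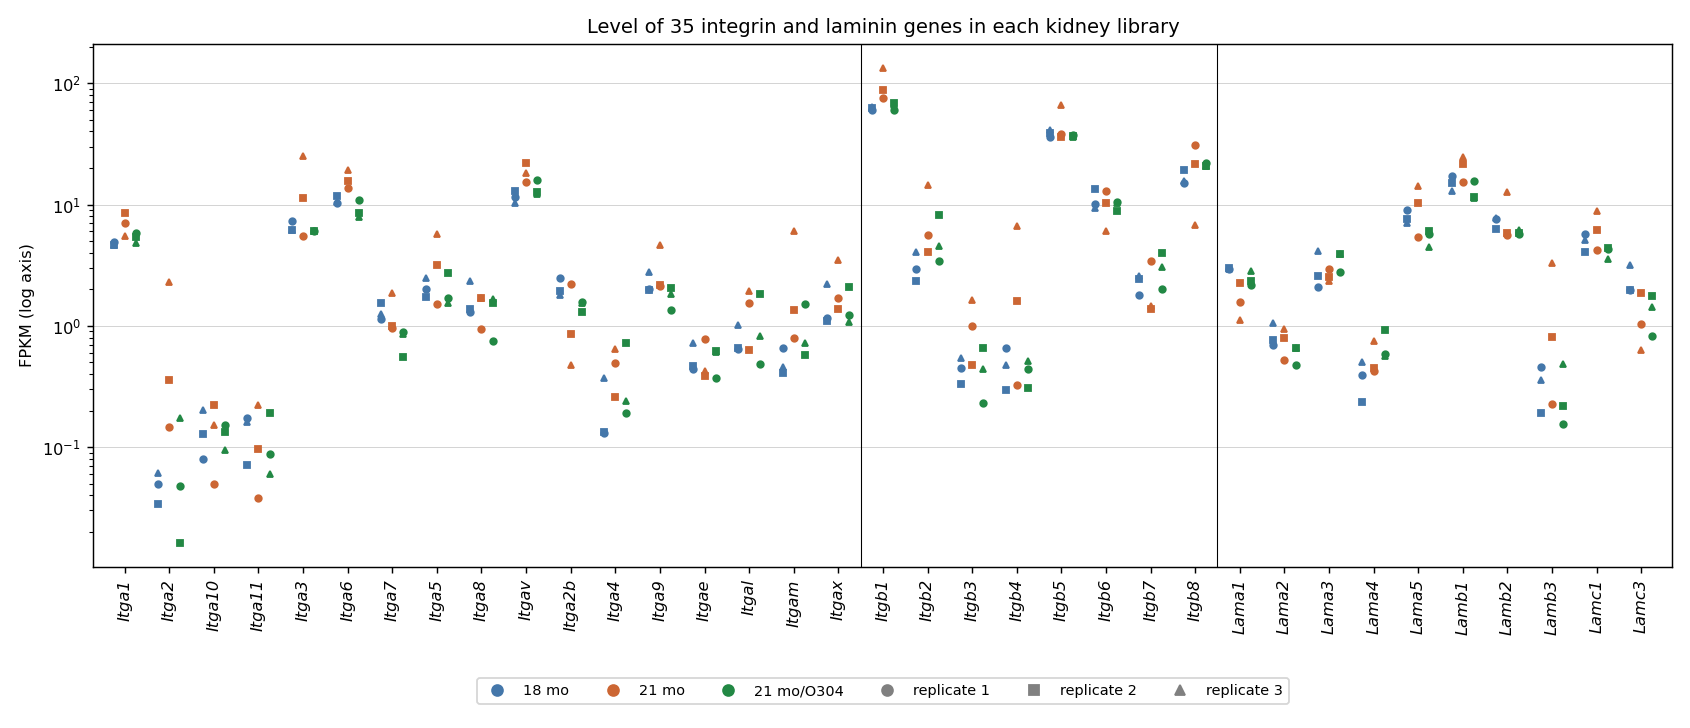
FPKM of 35 of the 36 tested integrin and laminin genes on a log axis, with 1 point per library, colour for the group and symbol for the replicate number (vertical lines divide α subunits, β subunits and laminin chains). Itgb1 lay highest at 62.5 ± 1.99 FPKM in 18 mo, and the triangle of 21 mo replicate 3 was the highest of 9 libraries in 20 of the 35 genes drawn.

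The first comparison asked how the kidney of 21-month-old mice differed from that of 18-month-old mice. Of the 36 genes, 25 had a higher mean in 21 mo and 11 a lower one, and the median log2 fold change was 0.43, compared with 0.03 over all genes tested. The genes with the larger differences were Itga2, Itgb4, Lamb3 and Itgam. The widely expressed Itgav, Itga1, Itga6 and Itgb1 had smaller differences, with all 21 mo libraries above all 18 mo libraries. That of Itgb1 depended on replicate 3 of 21 mo, with a log2 fold change of 0.67, or 0.37 without it. Lama1 and Lamc3 were lower in 21 mo. None of the 36 genes passed an adjusted p of 0.05 in edgeR's quasi-likelihood test (background 0.0189% of all genes, or 3 genes). At an unadjusted p under 0.05, 14 of the 36 genes were found, 12 of them higher and 2 lower in 21 mo, against a background of 26.1% of all genes, 14.0% higher and 12.0% lower. DESeq2, fitted to the same 9 libraries, called 10 of the 36 genes at an adjusted p under 0.05 (9 higher, 1 lower, background 14.4%), and limma voom with sample quality weights called 19 (15 higher, 4 lower, background 52.9%). In 7 genes all 21 mo libraries lay above all 18 mo libraries (background 13.5%), and in 2 all lay below (background 15.3%).

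These counts rested on single 21 mo libraries. Without replicate 1 of 21 mo, edgeR called 14 of the 36 genes (13 higher, 1 lower, background 25.4%), and without replicate 3 it called 1, Itga1 (background 0.806%). When every gene with at least 1 count was tested, 1 of the 37 genes was called, Itga2 (background 2.04%). Replicate 1 lay above the 18 mo range in 13 of the 36 genes, inside it in 12 and below it in 11, compared with 31.1% of all genes tested above and 33.4% below. Replicate 2 lay above that range in 17 genes and below it in 9 (37.3% and 36.1% of all genes), and replicate 3 above in 25 and below in 7 (41.3% and 40.5% of all genes).

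Among the subunits that bind collagen and RGD motifs, Itgav (ENSMUSG00000027087, chromosome 2, 83724397 to 83806916) showed 129, 141 and 114 CPM in replicates 1 to 3 of 18 mo, 171, 243 and 205 CPM in 21 mo, and 176, 141 and 135 CPM in 21 mo/O304. All 21 mo libraries were above all 18 mo libraries, while one 21 mo/O304 library reached the lower end of 21 mo. The log2 fold change of Itgav in 21 mo against 18 mo was 0.69 ± 0.17 (SE, edgeR adjusted p = 0.0775). Itga1 (chromosome 13, 114953096 to 115101964) had 95.5, 88.2 and 88.5 CPM in 18 mo, 136, 162 and 107 CPM in 21 mo, and 111, 103 and 92.2 CPM in 21 mo/O304. The 21 mo libraries of Itga1 were again all above those of 18 mo, with a log2 fold change of 0.57 ± 0.16 (SE, edgeR adjusted p = 0.0851). Itga1 was the only one of the 36 genes called without replicate 3 of 21 mo, where its log2 fold change was 0.69. Its locus overlaps Pelo, Gm10734 and Gm49395, and the counting of reads in shared sequence is not stated.

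Itgb1, the common β partner, had 257, 262 and 270 CPM in 18 mo, 317, 373 and 569 CPM in 21 mo, and 252, 286 and 277 CPM in 21 mo/O304. The 21 mo libraries lay above both other groups, with replicate 3 far above the rest. Its log2 fold change in 21 mo against 18 mo was 0.67 ± 0.22 (SE, edgeR adjusted p = 0.104), and 0.37 without that library. The ratio of Itgb1 to the summed FPKM of the α subunits that pair with it, αv left out, was 2.09 ± 0.0341 in 18 mo, 2.10 ± 0.185 in 21 mo and 2.40 ± 0.241 in 21 mo/O304 (SD, n = 3 each). The summed level of those α subunits was 29.9 ± 0.821 FPKM in 18 mo, 48.1 ± 17.6 FPKM in 21 mo and 27.0 ± 1.61 FPKM in 21 mo/O304. The ratios of 18 mo and 21 mo overlapped. Those of 21 mo/O304, 2.15 to 2.63, lay above 18 mo, 2.06 to 2.13, and overlapped 21 mo. The ratio was not tested between groups.

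Itga2, the α subunit of the collagen receptor best known from platelets and epithelia, was among the least abundant of the 36 genes. It lies 21.0 kb from Itga1 on chromosome 13 (114833081 to 114932100). Its counts were 6, 4 and 8 in 18 mo, 16, 46 and 372 in 21 mo, and 6, 2 and 20 in 21 mo/O304. In CPM these were 0.372, 0.246 and 0.453 in 18 mo, 1.07, 2.61 and 17.0 in 21 mo, and 0.349, 0.119 and 1.27 in 21 mo/O304. All 21 mo libraries exceeded all 18 mo libraries, and replicate 3 held most of the difference. The log2 fold change was 4.25 ± 1.15 (SE, edgeR adjusted p = 0.0835) and 2.33 without that library. Its neighbour Itga1 had its lowest 21 mo value in the same replicate 3.

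The laminin-binding α subunits differed from each other. Itga6 (ENSMUSG00000027111, chromosome 2, 71745616 to 71858416) had 96.1, 108 and 96.8 CPM in 18 mo, 128, 146 and 181 CPM in 21 mo, and 101, 79.6 and 72.9 CPM in 21 mo/O304. The 21 mo libraries stood above all 6 libraries of the other groups. The log2 fold change in 21 mo against 18 mo was 0.60 ± 0.17 (SE, edgeR adjusted p = 0.0897). Itga3 had 43.3, 36.2 and 36.1 CPM in 18 mo, 32.2, 67.0 and 149 CPM in 21 mo, and 35.7, 35.7 and 35.3 CPM in 21 mo/O304. For Itga3 replicate 1 of 21 mo was under every 18 mo library, so the groups overlapped, with a log2 fold change of 1.11 ± 0.44 (SE, edgeR adjusted p = 0.155) that was 0.35 without replicate 3. Itga7, a laminin receptor subunit of muscle cells, had 9.54, 12.7 and 10.5 CPM in 18 mo, 8.03, 8.24 and 15.8 CPM in 21 mo, and 7.44, 4.65 and 7.19 CPM in 21 mo/O304. Its log2 fold change in 21 mo against 18 mo was −0.03 ± 0.31 (SE, edgeR adjusted p = 0.962).

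Hemidesmosomes anchor epithelia through integrin α6β4 and a laminin that holds the α3 and β3 chains. Itgb4 (chromosome 11, 115974709 to 116008412) had 4.83, 2.10 and 3.45 CPM in 18 mo, 2.34, 11.6 and 48.8 CPM in 21 mo, and 3.20, 2.21 and 3.69 CPM in 21 mo/O304. Lamb3 had 3.16, 1.29 and 2.43 CPM in 18 mo, 1.54, 5.51 and 22.6 CPM in 21 mo, and 1.05, 1.49 and 3.31 CPM in 21 mo/O304. In both genes replicate 1 of 21 mo lay inside the 18 mo range, replicate 2 above it and replicate 3 further above, so the groups overlapped. The log2 fold changes in 21 mo against 18 mo were 2.60 ± 0.88 for Itgb4 (SE, edgeR adjusted p = 0.115) and 2.11 ± 0.86 for Lamb3 (adjusted p = 0.167). Without replicate 3 of 21 mo they were 1.00 and 0.61. Lama3, the α chain of the same laminin, did not share this order. It had 23.4, 28.3 and 46.2 CPM in 18 mo, 32.8, 28.0 and 26.2 CPM in 21 mo, and 30.6, 43.0 and 43.0 CPM in 21 mo/O304, and its log2 fold change in 21 mo against 18 mo was −0.17 ± 0.25 (SE, edgeR adjusted p = 0.684). Lamb3 overlaps other annotated genes, Hsd11b1 and G0s2 among them, so some of its reads are uncertain.

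**Figure D2:**
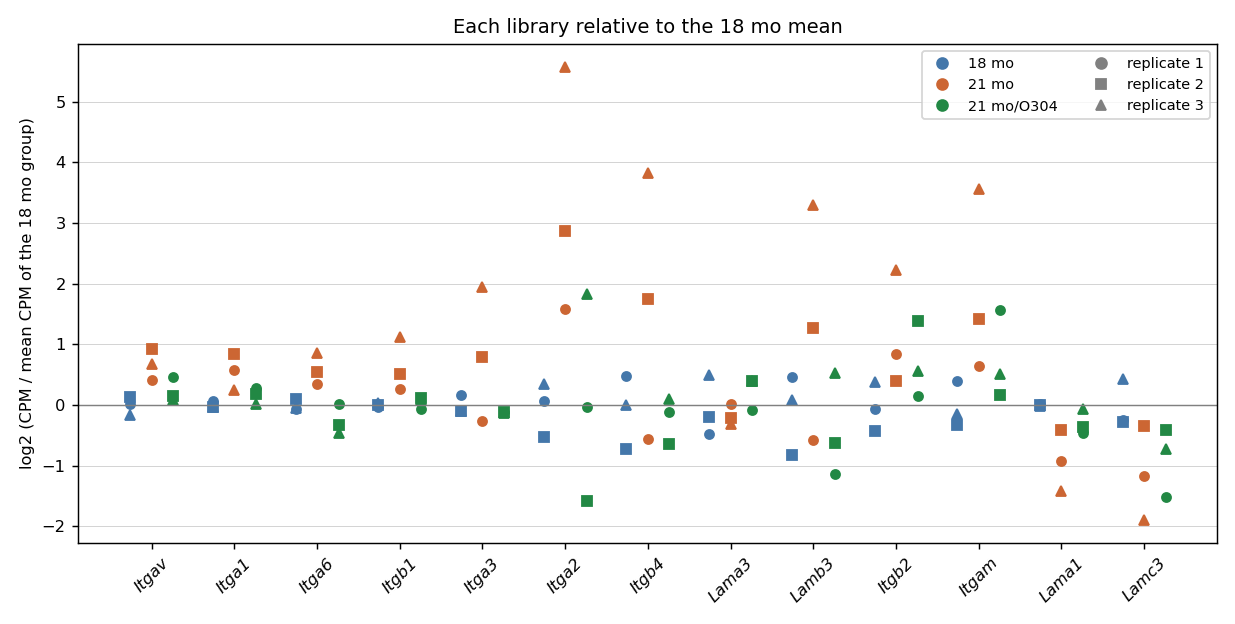
CPM of 13 integrin and laminin genes in each library as a log2 ratio to the mean of the 18 mo group, with colour for the group and symbol for the replicate number. Itgav, Itga1, Itga6 and Itgb1 had all 3 points of 21 mo above those of 18 mo, whereas Itgb4 and Lamb3 had replicate 1 of 21 mo within the 18 mo points and replicate 3 far above.

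Several β and α subunits are made mainly by blood cells. Itgam, the α subunit of the complement receptor of myeloid cells, had 3.47, 2.10 and 2.38 CPM in 18 mo, 4.15, 7.05 and 31.3 CPM in 21 mo, and 7.85, 2.98 and 3.76 CPM in 21 mo/O304. Every 21 mo library was above 18 mo, with a log2 fold change of 2.42 ± 0.73 (SE, edgeR adjusted p = 0.0969), or 1.06 without replicate 3. Itgb2, the β subunit of the leukocyte integrins, had 9.35, 7.27 and 12.7 CPM in 18 mo, 17.5, 12.8 and 45.8 CPM in 21 mo, and 10.8, 25.6 and 14.4 CPM in 21 mo/O304. The lowest 21 mo library barely cleared the highest 18 mo library, and the log2 fold change was 1.38 ± 0.50 (SE, edgeR adjusted p = 0.132), or 0.61 without replicate 3. Itgb3, the partner of αv and of the platelet subunit αIIb, had 2.79, 1.97 and 3.28 CPM in 18 mo, 6.09, 2.90 and 10.03 CPM in 21 mo, and 1.40, 3.99 and 2.67 CPM in 21 mo/O304. One 21 mo library of Itgb3 lay within 18 mo, and its log2 fold change was 1.24 ± 0.51 (SE, edgeR adjusted p = 0.166), or 0.72 without replicate 3. The platelet subunit itself, Itga2b, went the other way, with 14.1, 10.8 and 10.1 CPM in 18 mo and 12.4, 4.83 and 2.70 CPM in 21 mo, a log2 fold change of −0.82 ± 0.46 (SE, edgeR adjusted p = 0.286). The lymphocyte subunits Itgal and Itgae had log2 fold changes of 0.84 and −0.03, Itgax of myeloid and dendritic cells 0.56, Itgb7 of gut-homing lymphocytes −0.13 and Itga4 1.13, with unadjusted p between 0.104 and 0.930.

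Markers of other cell types moved with these genes. The summed CPM of 13 pan-leukocyte and myeloid markers ranged from 415 to 650 in 18 mo, from 974 to 4164 in 21 mo and from 739 to 764 in 21 mo/O304. Of the 13, 12 had all 21 mo libraries above 18 mo (background 13.5%). Ptprc, which encodes the leukocyte antigen CD45, had 14.6, 13.6 and 19.9 CPM in 18 mo, 38.9, 29.8 and 42.4 CPM in 21 mo, and 22.6, 41.7 and 25.0 CPM in 21 mo/O304. Csf1r, of the same list, overlapped, with 58.3 to 78.7 CPM in 18 mo and 68.3 to 125 CPM in 21 mo. Its range in 21 mo/O304 was 51.6 to 75.2 CPM. Summed CPM of 10 injured tubule markers was 1047 to 1140 in 18 mo, 1669, 14216 and 17468 in replicates 1 to 3 of 21 mo, and 1077 to 1580 in 21 mo/O304. For 12 fibroblast and mural cell markers the sum was 250 to 353 in 18 mo, 220, 666 and 1576 in 21 mo, and 167 to 356 in 21 mo/O304. The injured tubule and fibroblast sums had replicate 1 of 21 mo nearest to 18 mo and replicate 3 highest. Itga3, Itgb4 and Lamb3 had the same order, and the proximal tubule sum the reverse one. Spp1, of the injured tubule list, had 1235 to 12555 CPM in 21 mo, so it weighs heavily in that sum. Havcr1, of the same list, did not share the order. It had 8.71 to 23.5 CPM in 18 mo and 11.6, 475 and 61.2 CPM in replicates 1 to 3 of 21 mo. The part of cell composition in the integrin and laminin differences was not tested.

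The remaining abundant β subunits had no steady direction. Itgb8 had 174, 215 and 179 CPM in 18 mo, 351, 248 and 78.4 CPM in 21 mo, and 252, 238 and 239 CPM in 21 mo/O304. Its 21 mo libraries ran from above to below every other library, and the log2 fold change in 21 mo against 18 mo was 0.25 ± 0.42 (SE, edgeR adjusted p = 0.727). Itgb6 had 94.5, 76.0 and 44.5 CPM in 21 mo against 68.1 to 97.2 CPM in 18 mo, and Itgb5 had 139, 132 and 242 CPM in 21 mo against 133 to 152 CPM in 18 mo. The RGD-binding subunits Itga5, the fibronectin receptor, and Itga8, the nephronectin receptor of kidney development, had log2 fold changes of 0.75 ± 0.43 (SE, edgeR adjusted p = 0.296) and −0.21 ± 0.37 (SE, edgeR adjusted p = 0.748). Itga10 and Itga11 had log2 fold changes of 0.07 and −0.14 at under 1.2 CPM in every library.

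Among laminin chains, Lama1 is the α chain of the embryonic kidney and of adult proximal tubule membrane. Lama1 (ENSMUSG00000032796, chromosome 17, 67697259 to 67822647) had 29.9, 29.8 and 29.4 CPM in 18 mo, 15.7, 22.4 and 11.2 CPM in 21 mo, and 21.6, 23.1 and 28.4 CPM in 21 mo/O304. The 18 mo mice differed by less than 1 CPM, and every 21 mo library lay below them. The log2 fold change was −0.86 ± 0.23 (SE, edgeR adjusted p = 0.0829), and −0.66 without replicate 3 of 21 mo. Lamc3, a γ chain of lesser known role in kidney, had 12.4, 12.2 and 19.9 CPM in 18 mo, 6.56, 11.7 and 3.99 CPM in 21 mo, and 5.18, 11.1 and 8.98 CPM in 21 mo/O304. All 21 mo libraries were below 18 mo, replicate 2 only narrowly, with a log2 fold change of −1.01 ± 0.42 (SE, edgeR adjusted p = 0.174), or −1.51 without replicate 2. Lama5 had 107, 88.0 and 82.6 CPM in 18 mo and 63.5, 120 and 169 CPM in 21 mo, so that 21 mo spanned the 18 mo libraries, with a log2 fold change of 0.35 ± 0.30 (SE, edgeR adjusted p = 0.487). Lamb1 and Lamc1 had log2 fold changes of 0.45 ± 0.22 (SE, edgeR adjusted p = 0.220) and 0.37 ± 0.25 (SE, edgeR adjusted p = 0.372). Lama2, Lama4 and Lamb2 had log2 fold changes of −0.15, 0.53 and 0.17, with adjusted p between 0.373 and 0.735.

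**Figure D3:**
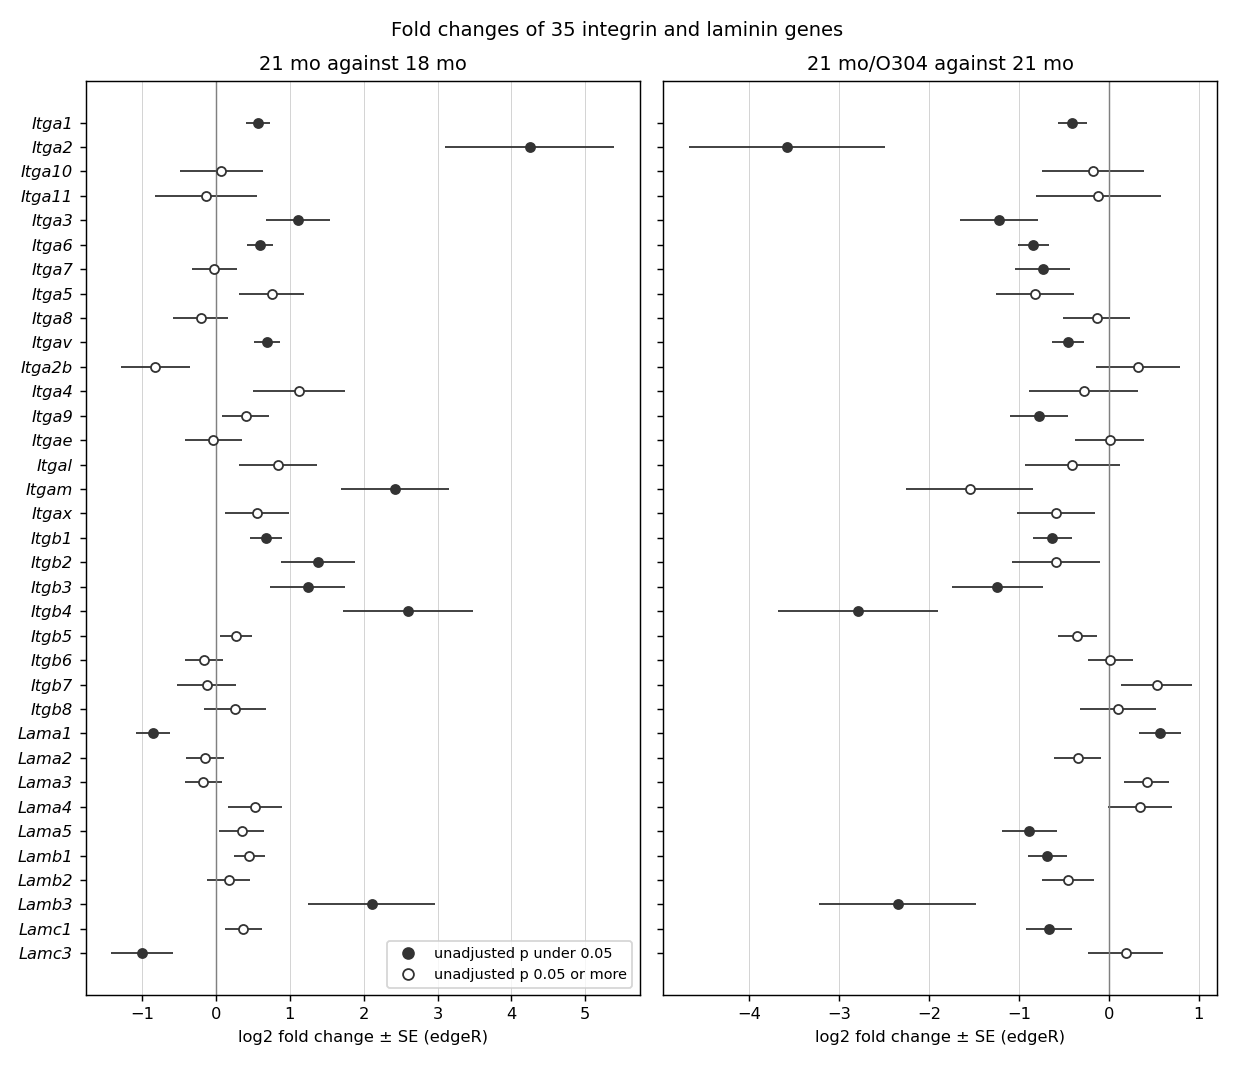
Log2 fold change ± SE (edgeR) of 35 of the 36 tested integrin and laminin genes in 21 mo against 18 mo (left) and in 21 mo/O304 against 21 mo (right), with filled points for an unadjusted p under 0.05. On the left 13 points are filled, 11 to the right of 0, and on the right 15 are filled, 14 to the left of 0, while none of the 36 genes passed an adjusted p of 0.05 in either comparison.

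The second comparison asked how kidneys of O304-treated mice differed from those of saline-treated mice of the same age. Of the 36 genes, 27 had a lower mean in 21 mo/O304 and 9 a higher one, with a median log2 fold change of −0.46, compared with −0.02 over all genes tested. Itga6, Itgb4, Itga2, Lamb3 and Lama5 were among the lower genes and Lama1 was higher. None of the 36 genes was called by edgeR at an adjusted p under 0.05 (background 0% of all genes). At an unadjusted p under 0.05 there were 16 genes, 15 lower and 1 higher, against a background of 20.7% of all genes, 12.4% lower and 8.27% higher. DESeq2 called 4 of the 36 genes, Itga2, Itga6 and Itgb4 among them, all lower (background 6.18%), and voom with quality weights called 15 (13 lower, 2 higher, background 41.1%). All 21 mo/O304 libraries lay below all 21 mo libraries in 4 genes (background 10.5%), and in 0 did they all lie above (background 10.8%). The 21 mo libraries that serve as the reference here are the same ones that were compared with 18 mo, so a high 21 mo value enters both comparisons with opposite sign. Without replicate 1 of 21 mo, edgeR called 15 of the 36 genes (13 lower, 2 higher, background 23.1%), and without replicate 3 it called 0 (background 0.00620%), as it did when every gene with at least 1 count was tested (background 0.0602%).

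The 4 genes with no overlap, a share near the background of 10.5%, were Itga6, Itga7, Itga9 and Itgb1. Itga6 had the smallest unadjusted p of the 36 genes, 0.000880, with a log2 fold change in 21 mo/O304 against 21 mo of −0.84 ± 0.17 (SE, edgeR adjusted p = 0.175), and −0.68 without replicate 3 of 21 mo. Itgb1 had a log2 fold change of −0.63 ± 0.22 (SE, edgeR adjusted p = 0.187), and −0.34 without that library. Itga9, the subunit of the tenascin and osteopontin receptor, had 16.2, 15.5 and 21.9 CPM in 18 mo, 16.9, 17.2 and 36.7 CPM in 21 mo, and 10.6, 16.3 and 14.5 CPM in 21 mo/O304. Replicates 1 and 2 of 21 mo were within 1 CPM of the highest 21 mo/O304 library, and the log2 fold change was −0.78 ± 0.32 (SE, edgeR adjusted p = 0.225), or −0.29 without replicate 3. Itga7 had a log2 fold change of −0.74 ± 0.31 (SE, edgeR adjusted p = 0.230), or −0.33 without replicate 3.

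Itgav and Itga1, whose 21 mo/O304 libraries overlapped 21 mo, had log2 fold changes of −0.45 ± 0.17 (SE, edgeR adjusted p = 0.206) and −0.41 ± 0.16 (SE, edgeR adjusted p = 0.210). The value of Itga1 was −0.25 without replicate 2 of 21 mo. Itga3 was within 35.3 to 35.7 CPM in the 21 mo/O304 mice, an SD of 0.212 CPM compared with 60.1 CPM in 21 mo, with a log2 fold change of −1.22 ± 0.44 (SE, edgeR adjusted p = 0.193), or −0.47 without replicate 3 of 21 mo. The larger differences were again in genes where replicate 3 of 21 mo was far above the rest. Itga2 had a log2 fold change of −3.58 ± 1.09 (SE, edgeR adjusted p = 0.176), Itgb4 of −2.79 ± 0.89 (SE, edgeR adjusted p = 0.180) and Lamb3 of −2.35 ± 0.87 (SE, edgeR adjusted p = 0.200). Without that library these were −1.66, −1.19 and −0.85. Itgb3 had a log2 fold change of −1.24 ± 0.51 (SE, edgeR adjusted p = 0.220), or −0.73 without it. The leukocyte subunits Itgam and Itgb2 had log2 fold changes of −1.55 ± 0.71 (SE, edgeR adjusted p = 0.252) and −0.59 ± 0.49 (SE, edgeR adjusted p = 0.485).

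Laminin chains did not move as 1 block. Lama5 had 67.2, 71.2 and 52.8 CPM in 21 mo/O304 against 63.5, 120 and 169 CPM in 21 mo, where replicate 1 lay among the treated mice. Its log2 fold change was −0.88 ± 0.31 (SE, edgeR adjusted p = 0.188), or −0.52 without replicate 3. Lamb1 had 179, 151 and 132 CPM in 18 mo, 158, 220 and 253 CPM in 21 mo, and 160, 117 and 116 CPM in 21 mo/O304, with a log2 fold change of −0.68 ± 0.22 (SE, edgeR adjusted p = 0.180). Lamc1 had 49.5, 34.3 and 43.7 CPM in 18 mo, 36.3, 52.4 and 75.7 CPM in 21 mo, and 36.5, 37.2 and 30.1 CPM in 21 mo/O304, with a log2 fold change of −0.67 ± 0.25 (SE, edgeR adjusted p = 0.203), or −0.35 without replicate 3 of 21 mo. Lama1, in contrast, had a log2 fold change of 0.57 ± 0.23 (SE, edgeR adjusted p = 0.217), its 21 mo/O304 libraries overlapping 21 mo by less than 1 CPM, and it was 0.36 without replicate 3 of 21 mo and 0.87 without replicate 2. Lama3, Lama4 and Lamc3 had log2 fold changes of 0.42, 0.34 and 0.19, and Lama2 and Lamb2 of −0.34 and −0.46, with adjusted p between 0.340 and 0.805. Among the other subunits, Itgb7 and Itga2b had log2 fold changes of 0.53 and 0.32, Itgb8 of 0.11, Itgb6 of 0.02 and Itgae of 0.01, whereas Itga5, Itgax, Itgal, Itgb5, Itga4, Itga10, Itga8 and Itga11 lay between −0.82 and −0.12.

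The third comparison set 21 mo/O304 against 18 mo. Levels were close in most of the 36 genes, with 13 higher and 23 lower means and a median log2 fold change of −0.09, compared with 0.00 over all genes tested. edgeR called 0 of the 36 genes (background 0%, or 0.0744% without replicate 3 of 21 mo), as did DESeq2 (background 1.47%) and voom with quality weights (background 2.61%). At an unadjusted p under 0.05 there were 2 genes, 1 in each direction (background 9.66%, 4.33% higher and 5.33% lower). Lama4 had 4.95, 2.90 and 6.28 CPM in 18 mo, 5.28, 5.57 and 9.48 CPM in 21 mo, and 7.33, 11.5 and 7.07 CPM in 21 mo/O304. Its 21 mo/O304 libraries lay above 18 mo, with a log2 fold change of 0.87 ± 0.36 (SE, edgeR adjusted p = 0.486). The sum of 10 endothelial markers was 575 to 820 CPM in 18 mo, 433 to 651 CPM in 21 mo and 603 to 993 CPM in 21 mo/O304, and its part in Lama4 was not tested. Itga7 had its 21 mo/O304 libraries below 18 mo, with a log2 fold change of −0.76 ± 0.31 (SE, edgeR adjusted p = 0.480).

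In 10 genes the 21 mo/O304 and 18 mo libraries did not overlap, 2 higher (background 13.2%) and 8 lower (background 13.3%) in 21 mo/O304. The higher genes were Itgb8 and Lama4, and the lower ones were the laminin chains Lama1, Lama2, Lama5, Lamb2 and Lamc3 with Itga2b, Itga3 and Itga7. Lama5 had a log2 fold change of −0.54 ± 0.31 (SE, edgeR adjusted p = 0.614), Lamc3 of −0.82 ± 0.42 (SE, edgeR adjusted p = 0.573) and Lama1 of −0.28 ± 0.23 (SE, edgeR adjusted p = 0.734). Lamb1, Lamc1 and Lamb3 had log2 fold changes of −0.23, −0.30 and −0.24. Of the subunits described for the other comparisons, Itgb1 had a log2 fold change of 0.05, Itgb3 of 0.00, Itga3 of −0.12, Itga1 of 0.17, Itgb4 of −0.19, Itgav of 0.24, Itga6 of −0.25 and Itga9 of −0.37. Itga2, Itgb2 and Itgam had larger values of 0.67, 0.79 and 0.88, with SEs of 1.19, 0.50 and 0.72.

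A laminin trimer takes 1 chain of each class, so the share of a chain within its class was computed per library from FPKM, and these shares do not depend on library size. In 18 mo the α chains were divided among Lama5 with 52.6% ± 7.39, Lama1 with 19.9% ± 1.29, Lama3 with 19.5% ± 6.46, Lama2 with 5.56% ± 1.09 and Lama4 with 2.49% ± 0.781 (SD, n = 3 each). Of the β chains, Lamb1 made up 66.5% ± 4.55, Lamb2 32.1% ± 4.31 and Lamb3 1.47% ± 0.497.

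The share of Lama1 was 19.5%, 21.3% and 18.8% in 18 mo, 14.5%, 13.8% and 5.72% in 21 mo, and 18.5%, 16.7% and 22.9% in 21 mo/O304. The 21 mo mice were below both other groups without overlap. Lama5 had 59.5%, 53.5% and 44.8% in 18 mo, 49.6%, 63.1% and 73.5% in 21 mo, and 48.8%, 43.8% and 36.1% in 21 mo/O304, where every treated mouse was below every 21 mo mouse, the nearest pair by under 1 percentage point. Lama4 was at 5.42% ± 1.11 in 21 mo/O304, above both 21 mo (3.52% ± 0.661) and 18 mo (2.49% ± 0.781) in every library. By the exact permutation test (two-sided), p was 0.1 for Lama1 in 21 mo against 18 mo, for Lama1, Lama4 and Lama5 in 21 mo/O304 against 21 mo, and for Lama4 in 21 mo/O304 against 18 mo. With 3 mice per group 0.1 is the smallest p this test can give, and after adjustment over the 33 share tests run each of these was 0.471. The β chains had p between 0.2 and 1 in all comparisons, and the mean share of Lamb3 in 21 mo, 4.01% ± 3.66, came largely from 8.11% in replicate 3.

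**Figure D4:**
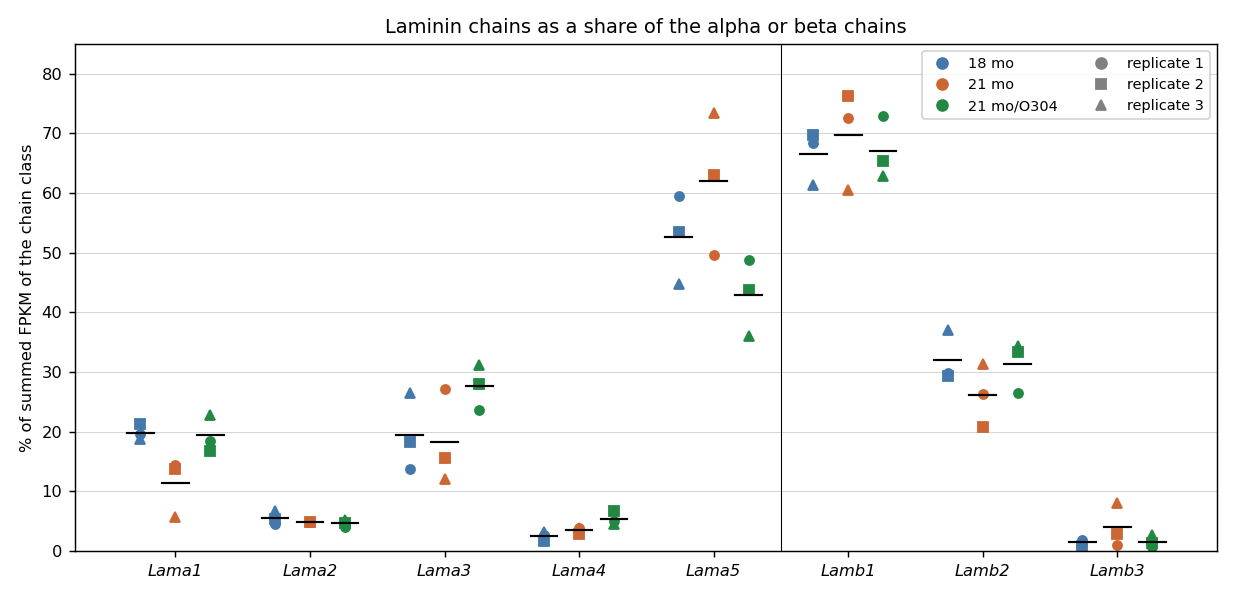
Share of each laminin α and β chain in the summed FPKM of its class, in % per library, with colour for the group, symbol for the replicate number and a black line for the group mean. The share of Lama1 lay at 5.72% to 14.5% in 21 mo, below all libraries of the other groups.

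Beside receptors and laminins, 4 hand-written lists covered the other genes of the same system, of which 85 of 89 were tested. None of the 85 genes was called by edgeR at an adjusted p under 0.05 in any of the 3 comparisons. Unadjusted p was under 0.05 in 35 genes in 21 mo against 18 mo (background 26.1% of all genes), in 38 in 21 mo/O304 against 21 mo (background 20.7%) and in 3 in 21 mo/O304 against 18 mo (background 9.66%). DESeq2 called 22, 21 and 1 of them in the same order (background 14.4%, 6.18% and 1.47%), and voom with quality weights called 60, 59 and 1 (background 52.9%, 41.1% and 2.61%). Without replicate 1 of 21 mo edgeR called 41, 43 and 0 (background 25.4%, 23.1% and 0%). For the single lists below, the background at an unadjusted p under 0.05 was 14.0% higher and 12.0% lower in 21 mo against 18 mo, 8.27% higher and 12.4% lower in 21 mo/O304 against 21 mo, and 4.33% higher and 5.33% lower in 21 mo/O304 against 18 mo.

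Integrin ligands outside the laminins had the largest differences. All 18 tested had a higher mean in 21 mo than in 18 mo, 12 at an unadjusted p under 0.05, with a median log2 fold change of 1.98. Spp1, which encodes osteopontin, a ligand of αv and α9 integrins, had 667 ± 66.5 CPM in 18 mo and 8317 ± 6173 CPM in 21 mo (SD, n = 3 each), from 1235 to 12555 CPM between the 21 mo mice. Its log2 fold change was 3.64 ± 0.75 (SE, edgeR adjusted p = 0.0626), and in 21 mo/O304, at 776 ± 197 CPM, it was −3.42 ± 0.74 against 21 mo (SE, edgeR adjusted p = 0.175). Vcam1, the endothelial and tubular ligand of α4 integrins, had 22.6 ± 5.79 CPM in 18 mo, 142 ± 104 CPM in 21 mo and 28.9 ± 10.1 CPM in 21 mo/O304, with log2 fold changes of 2.65 ± 0.59 (SE, edgeR adjusted p = 0.0679) and −2.30 ± 0.58 (SE, edgeR adjusted p = 0.175). The fibrinogen chains Fga and Fgb had log2 fold changes of 2.25 (adjusted p = 0.0672) and 3.58 (adjusted p = 0.0697) in 21 mo against 18 mo. All 18 ligands had a lower mean in 21 mo/O304 than in 21 mo, 11 at an unadjusted p under 0.05, with Icam1, a ligand of β2 integrins, at a log2 fold change of −1.12 and the microfibril gene Fbn1 at −2.55. Spp1 and Vcam1 also stand in the list of injured tubule markers, so the ligands and that list are not separate evidence.

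The list of integrin activation and adhesion complex genes had 12 of 36 higher and 1 lower at an unadjusted p under 0.05 in 21 mo against 18 mo, with a median log2 fold change of 0.18. Vcl, which encodes vinculin, the link from talin to actin, had 28.3 ± 4.86 CPM in 18 mo, 44.8 ± 6.84 CPM in 21 mo and 24.4 ± 2.25 CPM in 21 mo/O304. The 21 mo libraries of Vcl, from 39.0 to 52.3 CPM, were above those of both other groups, and its log2 fold changes were 0.66 ± 0.17 (SE, edgeR adjusted p = 0.0770) and −0.87 ± 0.17 (SE, edgeR adjusted p = 0.175). Lims1, which encodes the adaptor PINCH of integrin-linked kinase, and its binding partner Rsu1 had log2 fold changes of 0.49 ± 0.12 (SE, edgeR adjusted p = 0.0770) and 0.52 ± 0.15 (SE, edgeR adjusted p = 0.0871) in 21 mo against 18 mo. Fermt3, the kindlin of blood cells, had one of 1.06 ± 0.29 (SE, edgeR adjusted p = 0.0849). In 21 mo/O304 against 21 mo, 25 of the 36 had a lower mean and 11 a higher one, 10 lower and 1 higher at an unadjusted p under 0.05, with Rsu1 at −0.55, the actin crosslinker Actn1 at −1.69 and the paxillin relative Tgfb1i1 at −1.03, each with an adjusted p of 0.175. In 21 mo/O304 against 18 mo, 1 gene had an unadjusted p under 0.05, the GTPase Rap1a, which switches integrins on, with a log2 fold change of 0.49 ± 0.12 (SE, edgeR adjusted p = 0.334), and the next of the list were Vasp at −0.55, Apbb1ip at 0.97 and Lims1 at 0.25.

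Other basement membrane components were mixed in 21 mo against 18 mo, with 4 of 22 higher and 2 lower at an unadjusted p under 0.05, shares near the background, and a median log2 fold change of 0.39. Fras1, a protein of the epithelial basement membrane in kidney development, had 48.6 ± 3.10 CPM in 18 mo and 26.0 ± 10.4 CPM in 21 mo, a log2 fold change of −0.90 ± 0.26 (SE, edgeR adjusted p = 0.0901). Col4a4, a collagen IV chain of the mature glomerular membrane, had 249 ± 2.55 CPM in 18 mo and 163 ± 41.7 CPM in 21 mo, a log2 fold change of −0.61 ± 0.18 (SE, edgeR adjusted p = 0.0922). Fbln2 and Col4a6 had log2 fold changes of 3.19 ± 1.00 (SE, edgeR adjusted p = 0.101) and 1.91 ± 0.64 (SE, edgeR adjusted p = 0.114). In 21 mo/O304 against 21 mo, 11 of the 22 were lower and 0 higher at that p, with a median log2 fold change of −0.73. Col4a6 was at −2.58, the heparan sulfate proteoglycans Agrn and Col18a1 at −1.39 and −1.13 and Fbln2 at −2.90, with adjusted p between 0.175 and 0.186. Against 18 mo the median was −0.39, with a lower mean in 20 of the 22 and a higher one in 2. All 21 mo/O304 libraries lay below all 18 mo libraries in 10 genes (background 13.3%) and above them in 1 (background 13.2%). Nid2 was at −0.47 ± 0.18 (SE, edgeR adjusted p = 0.460) and Fbln1 at −0.91 ± 0.36 (SE, edgeR adjusted p = 0.471), both at an unadjusted p under 0.05. Fras1 was at −0.53 and Frem2 at −0.59.

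Laminin receptors outside the integrins and integrin-associated tetraspanins had 4 of 9 higher in 21 mo than in 18 mo at an unadjusted p under 0.05. Cd9, a tetraspanin, had 60.1 ± 3.65 CPM in 18 mo, 126 ± 57.9 CPM in 21 mo and 69.3 ± 10.9 CPM in 21 mo/O304, and between the first 2 groups its log2 fold change was 1.07 ± 0.30 (SE, edgeR adjusted p = 0.0849). Bcam, a receptor of the laminin α5 chain, had 128 ± 56.2 CPM in 18 mo, 307 ± 236 CPM in 21 mo and 75.2 ± 5.82 CPM in 21 mo/O304. Its log2 fold changes were 1.26 ± 0.53 (SE, edgeR adjusted p = 0.178) and −2.03 ± 0.55 (SE, edgeR adjusted p = 0.175), and −0.77 ± 0.53 (SE, edgeR adjusted p = 0.683) in 21 mo/O304 against 18 mo. Sdc1 and Rpsa had log2 fold changes of 1.66 and 0.84 in 21 mo against 18 mo, with adjusted p of 0.153 and 0.176. In 21 mo/O304 against 21 mo, 8 of the 9 had a lower mean, 5 at an unadjusted p under 0.05, among them Dag1, which encodes dystroglycan, with 200 ± 49.3 CPM in 21 mo and 123 ± 10.1 CPM in 21 mo/O304, a log2 fold change of −0.70 ± 0.19 (SE, edgeR adjusted p = 0.175). Cd82, Dag1 and Cd9 had log2 fold changes of −0.60, −0.32 and 0.21 in 21 mo/O304 against 18 mo.

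The 37 genes lie on several chromosomes, with a few neighbours. Itgad, Itgax and Itgam follow each other on chromosome 7, where the gap from Itgad to Itgax was 3.719 kb and that from Itgam to Itgax 11.056 kb. Itgam and Itgax had log2 fold changes of 2.42 and 0.56 in 21 mo against 18 mo, and Itgad was too low to test. Another annotated gene overlapped 20 of the 37 genes. Because the strand setting of the counting is not stated in the sources used here, reads of those overlaps are uncertain.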

How the data were processed

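Whole kidney RNA of 9 mice, 3 per group, was sequenced as 1 library each. Groups were taken from the sample labels. Per the labels, the authors extracted RNA with Trizol and prepared libraries with the NEBNext Ultra kit, and per the paper's methods they aligned the reads with HISAT2 (2.0.5) and assigned them to genes with featureCounts (1.5.0-p3). The counts are used as deposited, unnormalized. FPKM, as deposited, is the authors' scaling of each count by gene length and by 1 library size per library, which differs from the count total. The submitters' processing notes name DESeq2 1.20.0 and the builds GRCm38 and mm10. All 37 genes overlapped their RefSeq position in GRCm38.p6, 33 with an end within 10 bases. Strandedness and treatment of multi-mapping reads are not given in the sources used here. Columns holding the authors' own group means, fold changes and p-values for 2 of the comparisons were not used.

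Genes were filtered with edgeR's filterByExpr (minimum count 10, minimum total 15), normalized by TMM (factors 0.928 to 1.20) and tested by the quasi-likelihood test of edgeR 4.0.16 (R 4.3.3) on all 9 libraries with 3 group means and 6 residual degrees of freedom. Tests were two-sided, and p-values were adjusted by Benjamini-Hochberg over all genes tested, with a threshold of 0.05. SE is the size of the log2 fold change over the root of F. FPKM served for levels and for laminin chain shares, which were compared by exact permutation tests in Python (scipy 1.17.1). At these depths 1 count was worth 0.0458 to 0.0669 CPM, which limits Itga2, Itga10, Itga11 and Itgad most.

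Full values are given for genes with an unadjusted p under 0.05 in a comparison, other members by level or fold change, and up to 4 genes of each pathway list by smallest p. Lama3, Itga2b, Itgb5, Itgb6 and Itgb8 were given per library after their values were seen. The genes, lists and alternatives were chosen with earlier results of these data known. Besides the 4 pathway lists, 12 marker lists were written by hand, and the sums not printed in the comparisons are given with the other observations. The alternatives were DESeq2 1.42.0, limma 3.58.1 voom with sample quality weights, RLE and upper-quartile factors, no filter, the 6 libraries compared, a replicate block and leaving out each library in turn. For 1 laminin gene the values are not reported here, though the counts of genes hold it. The test scripts were tried on simulated counts first. Of 15652 genes tested there, 200 were changed 4-fold in 21 mo. At an adjusted p under 0.05 in 21 mo against 18 mo, edgeR recovered 72% of these, voom 70% and DESeq2 86.5%. Unchanged genes made up 8.28% of the calls of edgeR, 4.11% of those of voom and 28.8% of those of DESeq2. The simulation gave each gene the same spread in all groups and had no outlying library. In the data the median coefficient of variation over all genes was 25.9% in 21 mo and 12.5% in 18 mo. The simulated rates therefore do not give the power or the false calls of the tools in the data.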

Additional observations from a re-analysis of the deposited data

How the results depend on the processing

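Counts of called genes depended on the tool and on single 21 mo libraries. For 21 mo against 18 mo, where edgeR called 0 of the 36 integrin and laminin genes and 0 of the 85 pathway genes, DESeq2 called 10 and 22, voom with quality weights 19 and 60, and testing every gene with at least 1 count 1 and 5. Leaving out 1 library gave 0 to 14 and 0 to 41 calls, both highest without replicate 1 of 21 mo. For 21 mo/O304 against 21 mo, DESeq2 called 4 and 21, voom 15 and 59, and leaving out 1 library gave 0 to 15 and 0 to 43, again highest without that replicate. For 21 mo/O304 against 18 mo, DESeq2, voom and the fit to the 6 libraries compared each called 1 pathway gene. RLE and upper-quartile factors left the calls at 0.

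The number of integrin and laminin genes with an unadjusted p under 0.05, a count added after the data were seen, was 14, 16 and 2 for the 3 comparisons (background 26.1%, 20.7% and 9.66%). It was 10 and 10 in the fit to the 6 libraries for 21 mo/O304 against 21 mo and against 18 mo, 7 by voom for the latter, and 8 to 17, 5 to 20 and 0 to 7 when a library was left out. It was 5 without replicate 3 of 21 mo for 21 mo/O304 against 21 mo. Genes without overlap numbered 12 to 20 and 6 to 20 without a 21 mo library in the first 2 comparisons, compared with 9 and 4 with all 3, and 7 without replicate 2 for 21 mo/O304 against 21 mo. With 2 libraries in a group, overlap is less likely by construction. Shares of all genes are not given for the alternatives in this paragraph. Their counts therefore do not show how the integrin and laminin genes compare with the rest. None of the 20 named integrin and laminin genes changed direction under any alternative in the comparison that named it. Outside those, some directions were not stable. In 21 mo against 18 mo, voom called Lamb2 lower, at −0.30, where edgeR had 0.17. Itgal was at −0.33 by voom and 0.84 by edgeR. In 21 mo/O304 against 21 mo, voom put Itgb2 at 0.30 and Itgal at 0.50, where edgeR had −0.59 and −0.40. Other genes kept their direction by voom. Egfl6, a pathway gene at a log2 fold change of −1.01 in 21 mo/O304 against 18 mo, ranged from −2.18 to 0.17 when a library was left out, with 0.17 without replicate 1 of 18 mo. The cause of these shifts was not tested.

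The labels do not say whether a replicate number marks anything shared. Deviations of same-numbered libraries from their group means correlated at −0.130 to 0.175 over 9 pairs, over 0.1 in 5 of them, all 3 pairs of replicate 3 included, and replicate 2 of 21 mo correlated most, at 0.202, with replicate 1 of 21 mo/O304. As this held for some pairs and not for others, the numbers were not taken as pairs. With the replicate number as a block, edgeR called 0 integrin and laminin genes and 0 pathway genes in each comparison, and 12, 13 and 3 integrin and laminin genes had an unadjusted p under 0.05. For that fit too, the share of all genes at this p is not given. Chain shares from CPM per kilobase equal those from FPKM by construction.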

Other observations

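Markers of the other cell types of the kidney were followed beside the integrins and laminins. The summed CPM of 8 podocyte markers was 325, 360 and 451 in replicates 1 to 3 of 18 mo, 359, 313 and 760 in 21 mo, and 358, 538 and 541 in 21 mo/O304. Nphs1, which encodes the slit diaphragm protein nephrin, had 8.96, 8.70 and 34.8 CPM in 21 mo, so replicate 3 of 21 mo was highest here as it was for Itga3. The sum of 5 mesangial markers was 63.0 to 77.3 in 18 mo, 45.6, 107 and 260 in 21 mo, and 53.4 to 79.3 in 21 mo/O304. For 12 markers of the loop of Henle, distal tubule and collecting duct the sum was 4149 to 8481 in 18 mo, 3555 to 7287 in 21 mo and 3256 to 5317 in 21 mo/O304. The list of T, B and plasma cell markers summed to 115 to 242 in 18 mo, 120 to 657 in 21 mo and 230 to 739 in 21 mo/O304, and Cd3e of T cells stayed at 0.493 to 2.32 CPM in all libraries. Cd79a, of the same list, had 0.739 to 1.98 CPM in 18 mo, 0.398 to 2.47 in 21 mo and 2.68 to 6.20 in 21 mo/O304. In 21 mo/O304 all 12 tested genes of the list were higher than in 18 mo. Against 21 mo, 9 were higher and 3 lower. Dendritic cell markers summed to 12.4 to 20.7 in 18 mo, 11.3 to 19.6 in 21 mo and 17.2 to 33.7 in 21 mo/O304. Platelet markers, of which Itga2b is one, summed to 13.2 to 24.8, 9.66 to 27.9 and 12.8 to 21.5 CPM in the same order, and Gp1bb was at 0 in all libraries. Adipocyte markers summed to 108 to 113 in 18 mo, 88.2 to 107 in 21 mo and 95.9 to 303 in 21 mo/O304, with Adipoq at 0 to 1.41 CPM outside 21 mo/O304 and at 1.97 to 21.6 CPM within it. What part tissue makeup has in the integrin and laminin differences was not tested.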
